A study of Homo sapiens with 4 samples.

Results

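Skipped exons of 59 genes that encode chromatin regulators, among them the histone demethylase KDM1A, were followed after depletion of SNRPB2 in MDA-LM2, a human breast cancer line derived from MDA-MB-231 for its capacity to colonise the lung. An exon was taken as a member when it shared at least 1 boundary with an exon of a listed gene in GENCODE release 29 (hg38). This gave 279 exons in 57 of the 59 genes, out of 38121 skipped exons in all. The siSNRPB2 group was transfected with siRNA against SNRPB2, with a knockdown above 95% by qPCR for 2 siRNAs per the labels, and the siCtrl group with control siRNA. Both groups used Lipofectamine, and total RNA was taken at 48 h. Each group had 2 libraries, but the deposited values are 1 per group, so no spread between libraries can be given and every difference below lies between 2 files.

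Chromatin regulators add, remove or read chemical marks on histones and DNA, or slide and evict nucleosomes with the energy of ATP. KDM1A, also called LSD1, removes methyl groups from lysine 4 of histone H3 and works with the CoREST corepressor. Many of these genes make several proteins by alternative splicing, and KDM1A has 2 known cassette exons, a 60 nt exon after its second exon and a 12 nt exon described as neuronal. SNRPB2 encodes U2B″, one of the proteins that belong to the U2 snRNP, the spliceosomal particle that recognises the branch site of introns.

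The exons the results turn on are printed 5′ to 3′ on the transcript strand, from GENCODE release 29 transcripts (hg38). The 60 nt and 12 nt exons of KDM1A lie at chr1:23044427-23044486 (plus strand) and chr1:23066060-23066071 (plus strand), and both keep the reading frame.

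KDM1A 60 nt: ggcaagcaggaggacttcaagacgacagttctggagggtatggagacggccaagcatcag
KDM1A 12 nt: gacactgtcaag

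The MBD1 exon at chr18:50273334-50273471 (minus strand) is shown because it has 2 forms of 138 and 93 nt, which share their 5′ splice site. The capitals mark the 45 nt that only the longer form holds.

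MBD1 138 nt: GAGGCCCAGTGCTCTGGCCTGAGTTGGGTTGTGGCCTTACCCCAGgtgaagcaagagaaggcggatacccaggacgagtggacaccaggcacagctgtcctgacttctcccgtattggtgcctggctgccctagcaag

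The exons of KMT2E at chr7:105064028-105064116 (plus strand) and of EHMT1 at chr9:137803244-137803352 (plus strand) are shown because each brings a stop codon into the reading frame. The stop codon is in capitals.

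KMT2E 89 nt: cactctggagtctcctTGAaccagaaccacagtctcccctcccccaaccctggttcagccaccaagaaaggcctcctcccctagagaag
EHMT1 109 nt: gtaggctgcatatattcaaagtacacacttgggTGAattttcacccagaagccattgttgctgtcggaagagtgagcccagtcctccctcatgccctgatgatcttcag

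The short SMARCA1 exon at chrX:129493040-129493075 (minus strand) is shown because no read of it was counted in the siSNRPB2 file.

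SMARCA1 36 nt: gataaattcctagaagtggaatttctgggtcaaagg

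The inclusion level ψ is the fraction of transcripts with the exon, estimated by MISO from reads in the exon and the 2 exons beside it. Inclusion-only reads fit the isoform with the exon, exclusion-only reads fit the isoform without it, and flanking reads fit both. An exon was tested when it had at least 20 inclusion-only and exclusion-only reads together in each file. It was called when the Bayes factor in the authors' deposited table was at least 10 and ψ differed by at least 0.1. Of the 279 exons, 205 in 54 genes were tested. ARID2, KDM3A and KDM4A had exons below the read minimum, and no event was found for CBX3 or CBX5. Tested exons had a median of 159 such reads in the siSNRPB2 file and 166 in the siCtrl file, and the median width of the deposited ψ interval was 0.07 and 0.06.

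ψ was lower in siSNRPB2 for 18 called exons (8.78% of the 205, against a background of 7.61% of all 18682 tested exons) and higher for 13 (6.34%, against 7.13%). Together 31 exons (15.1%) in 22 genes were called, against 14.7% of all tested exons. The share called was thus near the background. The median ψ difference was 0 over the 205 exons and 0 over all tested exons. Among the called exons it was -0.21 for the lower and 0.22 for the higher, against -0.27 and 0.27 in the whole series. BPTF, BRD8 and SMARCC2 had called exons in both directions.

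**Figure D1:**
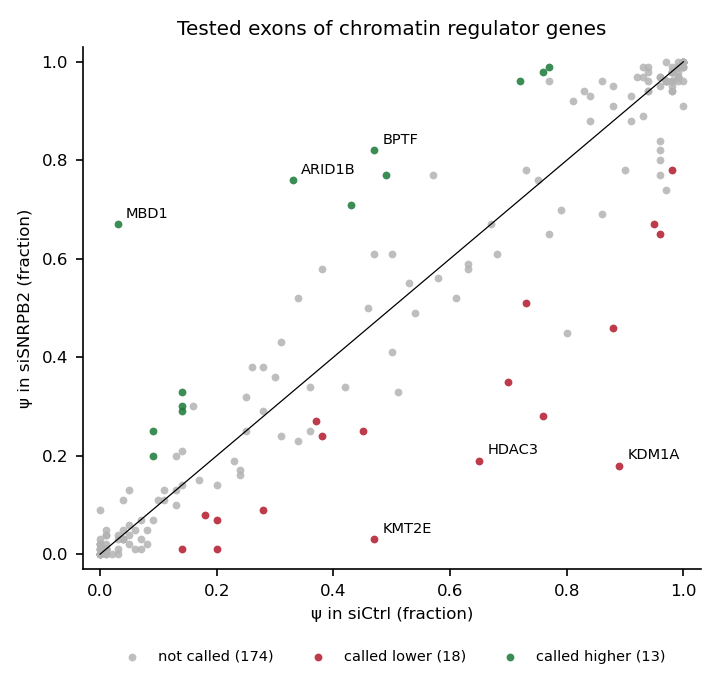
ψ of the 205 tested exons in siCtrl (horizontal axis, fraction) and in siSNRPB2 (vertical axis, fraction), 1 point per exon, with the diagonal of equal ψ. Most of the 174 uncalled exons lie near the diagonal at low or high ψ, KDM1A lies far below it (0.18 against 0.89) and MBD1 far above it (0.67 against 0.03).

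A second measure used the reads alone. Fisher's exact test on inclusion-only and exclusion-only reads, adjusted by Benjamini-Hochberg over all 18682 exons, compares the reads of the 2 files and not the conditions. With an adjusted p under 0.05 and a difference in read share of at least 0.1, it picked 21 of the 205 exons (10.2%, against 10.6% of all). Of these, 11 were also called. No exclusion-only read was counted in either file for 14 of the 31 called exons, so that their ψ rests on inclusion-only reads relative to flanking reads. The same held for 96 of the 205 tested exons.

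Read counts varied between the files beyond sampling. They were compared in 4455 exons of the series that were nearly always included (ψ from 0.95 up in each file, exclusion-only reads absent). There the ratio of inclusion-only to flanking reads gave a median chi-square 9.83 times its sampling value. With all reads divided by that factor, Fisher's exact test left 0 of the 205 exons with an adjusted p under 0.05, 2 with an unadjusted p under 0.05, and 4 of all 18682 adjusted. The factor came from inclusion-only against flanking reads, whereas the test compares inclusion-only with exclusion-only reads. Exons with few reads, such as that of SMARCA1 (22 and 21 isoform-specific reads), could not pass after the division, whatever their difference. The Bayes factors in the authors' deposited table were not scaled in this way.

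Among the histone demethylases, which take methyl groups off histone lysines, 1 of 16 tested exons was called, the 60 nt exon of KDM1A. Its ψ was 0.18 (interval 0.14 to 0.24) in siSNRPB2 and 0.89 (0.79 to 0.96) in siCtrl, a difference of -0.71, the largest in size of the 205. The siSNRPB2 file held 49 inclusion-only, 49 exclusion-only and 827 flanking reads, and the siCtrl file held 205, 1 and 859. Inclusion-only reads thus equalled exclusion-only reads in siSNRPB2, a share of 50% (95% Wilson interval 40.3 to 59.7), and were 99.5% (97.3 to 99.9) in siCtrl. These intervals cover counting error only. Fisher's exact test gave an adjusted p of 7.32e-25 for the reads of the 2 files. The exon is coding, sits 13792 nt from the exon upstream and 5900 nt from the exon downstream, and its loss would leave the reading frame intact.

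The 12 nt exon of KDM1A, known from neurons, had a ψ of 0 in both files. No inclusion-only read was counted, while exclusion-only reads numbered 280 (siSNRPB2) and 383 (siCtrl), which allows a share of up to 1.07% and 0.783%. The other uncalled demethylase exons included that of KDM5B with the most reads, a 123 nt coding exon with 1588 and 1483 inclusion-only reads and a ψ of 1.00 in both files. KDM5B, an H3K4 demethylase, had 6 tested exons and none was called.

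**Figure D2:**
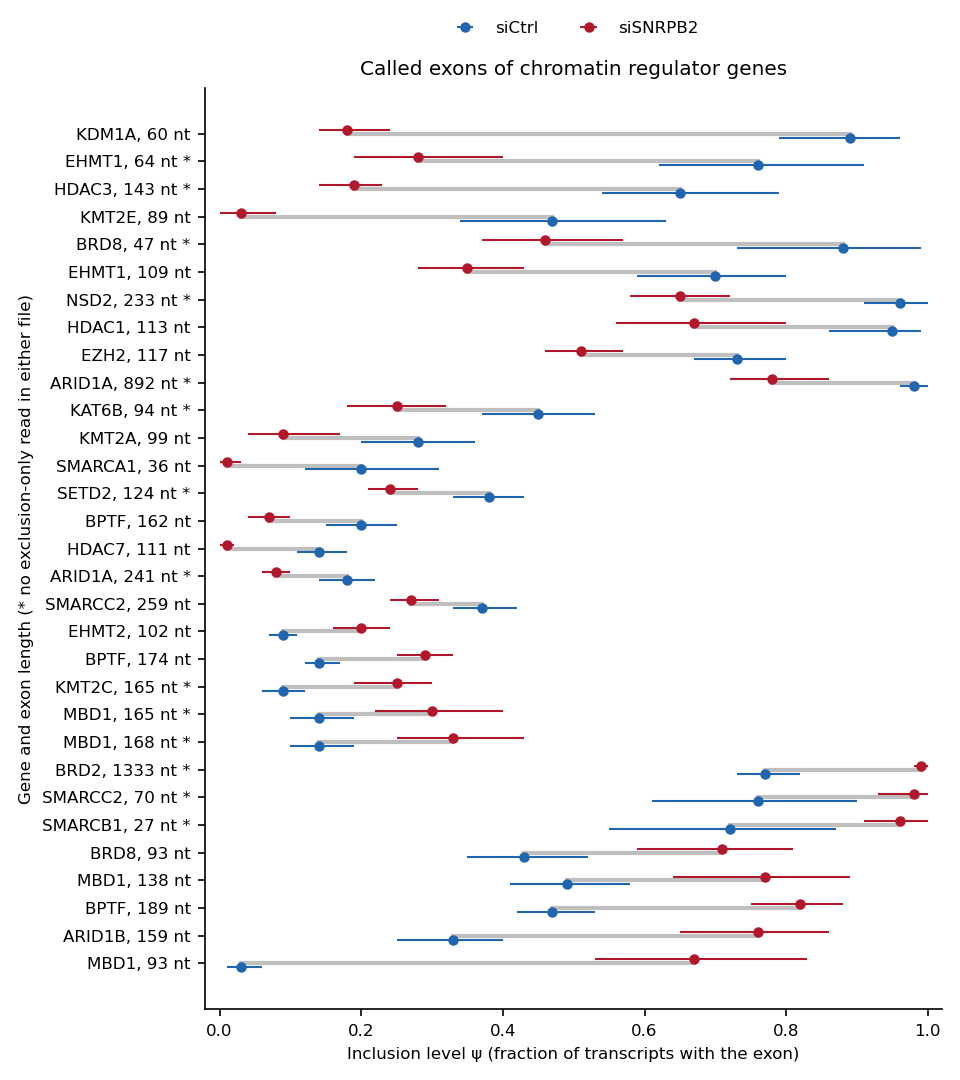
ψ of the 31 called exons (horizontal axis, fraction, points with the deposited intervals) in siCtrl and siSNRPB2, 1 row per exon ordered by the difference, with a grey bar between the 2 values. The 18 exons at the top were lower in siSNRPB2 and the 13 at the bottom higher, and the 14 rows with a star had no exclusion-only read.

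Polycomb repressive complex 2 methylates lysine 27 of histone H3 through its catalytic subunit EZH2. A 117 nt coding exon of EZH2 at chr7:148832634-148832750, a multiple of 3, was called lower, with a ψ of 0.51 (0.46 to 0.57) against 0.73 (0.67 to 0.80). The reads were 341 inclusion-only, 17 exclusion-only and 1052 flanking in siSNRPB2, and 465, 13 and 958 in siCtrl. By reads alone the exon-containing share was 95.3% and 97.3%, close together, and Fisher's exact test gave an adjusted p of 0.504. The scaffold subunit EED was not called at its 75 nt coding exon, with a ψ of 0.07 and 0.09 on 134 inclusion-only and 1264 exclusion-only reads against 186 and 1294.

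EHMT1 and EHMT2, also called GLP and G9a, form a heterodimer that methylates lysine 9 of histone H3, and the heterochromatin protein 1 family (CBX1, CBX3, CBX5) reads that mark. Of 9 tested exons in this group, 2 were lower and 1 higher. The 2 lower exons are both in EHMT1, and the higher one is in EHMT2.

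The 64 nt coding exon of EHMT1 at chr9:137710967-137711030, not a multiple of 3, had a ψ of 0.28 (0.19 to 0.40) against 0.76 (0.62 to 0.91). It had 27 inclusion-only reads beside 862 flanking reads in siSNRPB2 and 69 beside 824 in siCtrl, or 3.13 against 8.37 per 100 flanking reads, with no exclusion-only read in either. The 109 nt exon printed above, annotated only in transcripts subject to nonsense-mediated decay, had a ψ of 0.35 against 0.70. The siSNRPB2 file held 84 inclusion-only reads beside 52 exclusion-only, and the siCtrl file 90 beside 13, with an adjusted p of 1.23e-04 by Fisher's exact test. Inclusion-only reads were 61.8% of its isoform-specific reads in siSNRPB2 and 87.4% in siCtrl. A 154 nt exon of EHMT1 between the same flanking exons, also with an in-frame stop, was not called. Its ψ was 0.58 against 0.63, on 219 and 99 inclusion-only reads and the same exclusion-only reads.

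The 102 nt coding exon of EHMT2 at chr6:31888969-31889070, a multiple of 3, had a ψ of 0.20 (0.16 to 0.24) against 0.09 (0.07 to 0.11). Its reads were 109 inclusion-only, 16 exclusion-only and 1081 flanking against 65, 36 and 1452, with an adjusted p of 6.91e-04 by Fisher's exact test. The uncalled exon with the most reads was a 78 nt coding exon of EHMT1. It had a ψ of 0.92 against 0.81, and the authors' deposited table lists a Bayes factor of 8.08, just under the minimum of 10.

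The methyltransferases for lysines 4 and 36 of histone H3 mark active promoters, enhancers and transcribed gene bodies. Of the 36 tested exons of genes listed in this group, not all of them shown here to be such enzymes, 4 were lower (KMT2E, NSD2, KMT2A and SETD2) and 1 was higher (KMT2C). The 89 nt exon of KMT2E, a trithorax-family protein, carries the in-frame stop printed above and is annotated only in transcripts subject to nonsense-mediated decay. Its ψ was 0.03 (0.00 to 0.08) against 0.47 (0.34 to 0.63). The reads were few, 0 inclusion-only, 21 exclusion-only and 57 flanking in siSNRPB2 and 25, 15 and 50 in siCtrl. The absence of inclusion-only reads in siSNRPB2 allows a share of up to 14.3%, and Fisher's exact test gave an adjusted p of 1.41e-05.

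NSD2 places dimethylation on lysine 36. Its 233 nt exon at chr4:1951999-1952231, found in non-coding transcripts and not a multiple of 3, had a ψ of 0.65 (0.58 to 0.72) against 0.96 (0.91 to 1.00). It rested on 528 inclusion-only and 1004 flanking reads against 907 and 1101, or 52.6 against 82.4 per 100 flanking reads. It is a longer form of a 124 nt coding exon that ends at the same base, and reads in the shared bases can fit both. The coding form, measured against the same flanking reads, had a ψ of 0.99 against 1.00 and was not called, so the ψ of the 2 forms cannot be added or read as separate shares. SETD2, the enzyme for lysine 36 trimethylation, had a 124 nt coding exon at 0.24 against 0.38, also without exclusion-only reads.

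The 99 nt exon of KMT2A, the founding member of the MLL family, had a ψ of 0.09 against 0.28. Its call depends on the event used. In the event reported here the reads were 6 inclusion-only and 34 exclusion-only against 34 and 60, with an adjusted p of 0.0759 by Fisher's exact test. The event with the second most reads gave a ψ difference of 0.21 in the opposite direction. KMT2C, the MLL3 enzyme of enhancers, had a 165 nt coding exon at chr7:152157761-152157925, a multiple of 3, with a ψ of 0.25 (0.19 to 0.30) against 0.09 (0.06 to 0.12). Its inclusion-only reads were 82 beside 624 flanking reads against 41 beside 879, a level of 13.1 against 4.66 per 100 flanking reads, with no exclusion-only read.

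SETD5 had the uncalled exon with the most reads of the group, a 193 nt exon of transcripts annotated as subject to nonsense-mediated decay, with a ψ of 0.59 against 0.63. A 41 nt exon of SETD5 in non-coding transcripts had 12 inclusion-only reads beside 88 exclusion-only in siSNRPB2, and 0 beside 128 in siCtrl. Its ψ of 0.09 against 0.00 stayed just short of the minimum difference, and Fisher's exact test gave an adjusted p of 4.12e-04.

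In the DNA methylation group, all 4 called exons of 14 tested were in MBD1 and all were higher in siSNRPB2. MBD1 binds methylated CpG sites and recruits repressors. The 4 exons are 2 pairs of overlapping forms, so they are not 4 separate measurements. The 93 nt form of the exon printed above had a ψ of 0.67 (0.53 to 0.83) against 0.03 (0.01 to 0.06), a difference of 0.64, the largest increase of the 205. It had 81 inclusion-only, 0 exclusion-only and 502 flanking reads against 5, 15 and 648, with an adjusted p of 5.38e-12 by Fisher's exact test.

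The 138 nt form of the same MBD1 exon, with the 45 nt in capitals, had a ψ of 0.77 (0.64 to 0.89) against 0.49 (0.41 to 0.58), on 140 inclusion-only reads against 131. The exclusion-only and flanking reads of both forms are the same. In siCtrl, inclusion-only reads of the long form were thus many and those of the short form few, while in siSNRPB2 both were counted. Reads in the bases that the 2 forms share can fit both, so their ψ cannot be added or read as separate shares. The second pair, 165 and 168 nt, differs by 3 nt at its 5′ end and lies at chr18:50274186-50274353. Its ψ was 0.30 and 0.33 in siSNRPB2 against 0.14 for both forms in siCtrl, without exclusion-only reads in the events used. For the 168 nt form the second event gave a difference of 0.12 in place of 0.19. All 4 lengths are multiples of 3. The other 4 tested exons of MBD1 were not called.

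DNMT1, the maintenance DNA methyltransferase, had the uncalled exon with the most reads. This 48 nt coding exon at chr19:10180187-10180234 had a ψ of 0.14 against 0.20, on 282 inclusion-only and 1040 exclusion-only reads against 360 and 667. Its Bayes factor in the authors' deposited table was at the table's maximum, and Fisher's exact test gave an adjusted p of 1.80e-11, but the ψ difference of -0.06 is below 0.1. Such exons, with a small difference although the Bayes factor of the authors' deposited table reached 10, numbered 16 of the 205. The share over all tested exons is not given here, so this count is not read as particular to these genes.

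Histone deacetylases remove acetyl groups from histone tails. Of 21 tested exons, 3 were called, all lower and 1 each in HDAC3, HDAC1 and HDAC7. The 143 nt coding exon of HDAC3, the catalytic subunit of the NCoR and SMRT complexes, lies at chr5:141634811-141634953 and is not a multiple of 3. Its ψ was 0.19 (0.14 to 0.23) against 0.65 (0.54 to 0.79). It had 80 inclusion-only and 354 flanking reads against 194 and 244, or 22.6 against 79.5 per 100 flanking reads, and no exclusion-only read.

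The 113 nt coding exon of HDAC1, a class I deacetylase of several corepressor complexes, lies at chr1:32302621-32302733 and is not a multiple of 3. Its ψ was 0.67 (0.56 to 0.80) against 0.95 (0.86 to 0.99). The reads were 183 inclusion-only, 2 exclusion-only and 476 flanking against 271, 0 and 468. With so few exclusion-only reads, Fisher's exact test gave an adjusted p of 0.595. The 111 nt coding exon of HDAC7, a class IIa enzyme, had a ψ of 0.01 against 0.14 on reads of both classes. They were 0 inclusion-only and 65 exclusion-only in siSNRPB2 against 46 and 64 in siCtrl, with an adjusted p of 5.36e-10 by Fisher's exact test. The floor of 3 reads allows a share of up to 4.62% in siSNRPB2.

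The uncalled deacetylase exon with the most reads was an 80 nt coding exon of HDAC3, with a ψ of 0.99 against 1.00 on 415 and 704 inclusion-only reads. A 109 nt exon of HDAC8 had a ψ of 0.45 against 0.80 on 31 and 57 inclusion-only reads. It was not called because the authors' deposited table lists 5.39 as its Bayes factor.

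**Figure D3:**
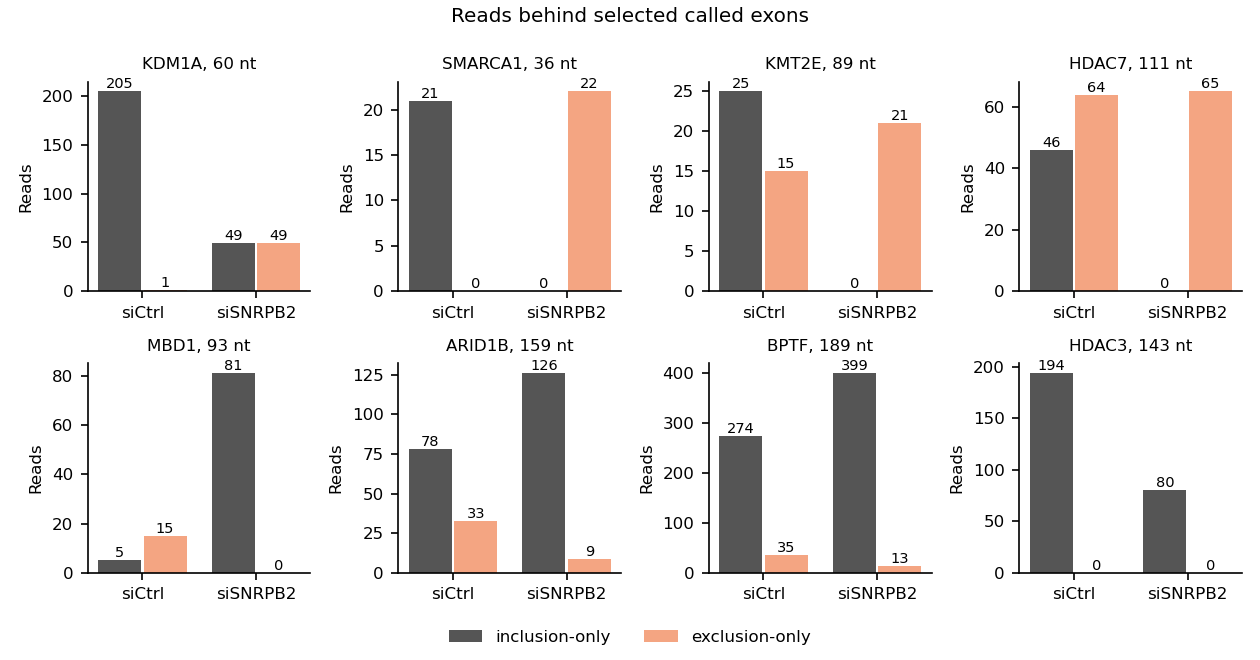
Inclusion-only and exclusion-only reads (vertical axes, reads, each from 0) in siCtrl and siSNRPB2 for 8 called exons. Exclusion-only reads of KDM1A are 1 in siCtrl and 49 in siSNRPB2, those of the 93 nt MBD1 exon are 15 and 0, and HDAC3 has none in either file.

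Acetyltransferases add acetyl groups, and bromodomain proteins bind them. Of 21 tested exons in this group, 2 were lower (BRD8 and KAT6B) and 2 were higher (BRD2 and BRD8). BRD8, a subunit of the TIP60 acetyltransferase complex, had a 47 nt coding exon at chr5:138164087-138164133, not a multiple of 3, with a ψ of 0.46 (0.37 to 0.57) against 0.88 (0.73 to 0.99). It rested on 86 inclusion-only and 415 flanking reads against 138 and 345, with no exclusion-only read.

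The 93 nt coding exon of BRD8 at chr5:138166518-138166610, a multiple of 3, had a ψ of 0.71 (0.59 to 0.81) against 0.43 (0.35 to 0.52). Its reads were 147 inclusion-only, 3 exclusion-only and 795 flanking against 102, 0 and 981. The share of isoform-specific reads ran the other way, 98.0% against 100%, so the direction of this exon rests on the inclusion-only reads relative to flanking reads. An overlapping 210 nt coding form with the same exclusion-only and flanking reads had a ψ of 0.94 in both files and was not called. A 57 nt exon of BRD8, annotated in transcripts subject to nonsense-mediated decay, was uncalled with a ψ of 0.03 against 0.00 but had 19 inclusion-only reads of 393 isoform-specific reads against 0 of 291.

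BRD2, a BET protein, had a 1333 nt exon that holds the start codon, at chr6:32971595-32972927, not a multiple of 3. Its ψ was 0.99 (0.98 to 1.00) against 0.77 (0.73 to 0.82), on 3475 inclusion-only and 960 flanking reads against 3803 and 1638. The acetyltransferase KAT6B had a 94 nt coding exon at chr10:74989019-74989112, not a multiple of 3, with a ψ of 0.25 (0.18 to 0.32) against 0.45 (0.37 to 0.53). Its reads were 51 inclusion-only and 778 flanking against 131 and 1081. Neither of these exons had an exclusion-only read. The uncalled exon with the most reads was a 453 nt coding exon of BRD8, at 0.96 against 1.00 on 1616 and 2306 inclusion-only reads.

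SWI/SNF complexes move nucleosomes through an ATPase, SMARCA4 or SMARCA2, with core and accessory subunits. Of 61 tested exons, 3 were lower (2 overlapping forms in ARID1A and 1 in SMARCC2) and 3 were higher (ARID1B, SMARCB1 and SMARCC2). ARID1A and ARID1B are alternative DNA-binding subunits of the same complex. The 159 nt coding exon of ARID1B at chr6:157174847-157175005, a multiple of 3, had a ψ of 0.76 (0.65 to 0.86) against 0.33 (0.25 to 0.40). It had reads of both classes, 126 inclusion-only, 9 exclusion-only and 179 flanking against 78, 33 and 279, with an adjusted p of 3.54e-05 by Fisher's exact test.

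The 892 nt coding exon of ARID1A at chr1:26774329-26775220, not a multiple of 3, had a ψ of 0.78 (0.72 to 0.86) against 0.98 (0.96 to 1.00). Its inclusion-only reads were near equal, 2653 and 2638, beside 680 flanking reads in siSNRPB2 and 442 in siCtrl. A 241 nt form that ends at the same base had 0.08 against 0.18 with the same flanking reads. Neither form had an exclusion-only read in either file, so both calls rest on inclusion-only reads relative to flanking reads.

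The core subunit SMARCB1 had a 27 nt coding exon at chr22:23800944-23800970, a multiple of 3, with a ψ of 0.96 (0.91 to 1.00) against 0.72 (0.55 to 0.87). It rested on 162 inclusion-only and 1000 flanking reads against 79 and 863. Overlapping forms of 138, 192 and 1021 nt, measured against the same flanking reads, were not called, with a ψ of 0.95 against 0.88, 0.61 against 0.50 and 0.13 against 0.11. SMARCC2, a scaffold subunit, had a 70 nt coding exon at chr12:56183861-56183930, not a multiple of 3, at 0.98 (0.93 to 1.00) against 0.76 (0.61 to 0.90) on 198 inclusion-only and 141 flanking reads against 127 and 231. Neither exon had an exclusion-only read. The 259 nt exon of SMARCC2 moved the other way, at 0.27 against 0.37, and its exclusion-only reads numbered 13 (siSNRPB2) and 0 (siCtrl).

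No exon of SMARCA4 was called among its 12 tested. Its 99 nt coding exon had a ψ of 0.01 against 0.07, with 5 inclusion-only and 154 exclusion-only reads against 45 and 84. The adjusted p was 3.73e-11 by Fisher's exact test. The uncalled SWI/SNF exon with the most reads was a 1933 nt exon of SMARCB1 in non-coding transcripts, with 5399 and 5230 inclusion-only reads and a ψ of 1.00 in both files.

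The other ATP-dependent remodelers had 23 tested exons, of which 2 were lower (SMARCA1 and BPTF) and 2 higher (both BPTF). SMARCA1 is the ATPase SNF2L, and BPTF is its partner in the NURF complex, where it reads histone marks. The 36 nt coding exon of SMARCA1, a multiple of 3 printed above, had a ψ of 0.01 (0.00 to 0.03) against 0.20 (0.12 to 0.31). It had 0 inclusion-only, 22 exclusion-only and 726 flanking reads in siSNRPB2 and 21, 0 and 701 in siCtrl. The floor of 3 reads allows an inclusion share of up to 13.6% in siSNRPB2, and Fisher's exact test gave an adjusted p of 7.65e-11. That p belongs to the read share and not to ψ. The 2 measures differ widely in siCtrl, where the share was 100% and ψ 0.20.

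BPTF had 3 called exons, all coding and multiples of 3. The 189 nt exon at chr17:67875556-67875744 had a ψ of 0.82 (0.75 to 0.88) against 0.47 (0.42 to 0.53), on 399 inclusion-only, 13 exclusion-only and 673 flanking reads against 274, 35 and 867. With its second event the difference was 0.18 in place of 0.35, and the median over both events was 0.265. The 174 nt exon had 0.29 against 0.14, with 170 inclusion-only and 218 exclusion-only reads against 89 and 258. Fisher's exact test gave adjusted p values of 2.12e-04 and 6.22e-06 for these exons. The 162 nt exon was lower, at 0.07 against 0.20, with 15 inclusion-only and 57 exclusion-only reads against 56 and 82 and an adjusted p of 0.033. Within BPTF, called exons thus moved in both directions on reads of both classes.

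CHD2, a chromodomain helicase, had a 108 nt coding exon at a ψ of 0.91 against 1.00, uncalled, with 19 exclusion-only reads (0 in siCtrl) beside 777 and 1136 inclusion-only reads. The uncalled exon of the group with the most reads was a 167 nt coding exon of SMARCA1, at 0.50 against 0.46 on 1136 and 1292 inclusion-only reads.

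Lengths and frames of the called exons were compared without a test. Of the 205 tested exons, 106 (51.7%) were a multiple of 3 in length, against 41.8% of all tested exons. Among the called exons this held for 6 of the 18 lower and 11 of the 13 higher. In the whole series the shares were 45.4% among lower calls and 45.2% among higher calls. Since 4 of the 13 higher exons are overlapping forms in MBD1, the count without MBD1 is 7 of 9. The median length was 112 nt for the lower, 159 nt for the higher and 117 nt for all 205. The intron upstream had a median of 1836.5 nt for the lower and 626 nt for the higher exons, and 937 nt for the higher without MBD1, against 2259 nt for all 205. A stop codon in the reading frame was found in 3 of the 18 lower exons, those of KMT2E, EHMT1 (109 nt) and NSD2. It was found in 1 of the 13 higher exons, that of BRD2, and in 47 of the 181 tested exons whose frame was known. The frame was carried in from the annotated coding sequence of the exon upstream. The BRD2 exon itself holds an annotated start codon, so this stop does not apply to transcripts whose translation starts there in another frame. Some of the 47 are annotated as untranslated only, such as exons of HDAC2 and KDM2A.

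Genes that work beside the members were read in the same way. Of the 21 listed partners of KDM1A, 12 had tested exons, 40 in all, of which 2 were lower and 2 higher. This was 10% called, against 14.7% of all tested exons. The largest differences were in PHF21A, the CoREST complex subunit BHC80 that reads unmodified H3K4 (156 nt, ψ 0.87 against 0.38), in GSE1 (128 nt, 0.05 against 0.36) and in MTA1, a NuRD subunit (51 nt, 0.74 against 0.97). Of 150 other chromatin regulators, 93 had tested exons, 241 in all, of which 20 were lower and 21 higher. This was 17.0% called, against the same 14.7%. The largest there were EZH1, the paralogue of EZH2 (0.92 against 0.35), NCOA1 (0.40 against 0.92), and MBD5 (0.43 against 0.93) and PRDM2 (0.98 against 0.48), which tie in size. No exclusion-only read was counted in either file for the exons of PHF21A, EZH1, MBD5 and PRDM2, and that of MBD5 had no flanking read in siCtrl.

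Reads over the exons of an event served as a measure of gene level, taken from the deepest event of each gene and scaled to RPM (reads per 1e6 reads) over 1 event per gene. Their log2 ratio, siSNRPB2 over siCtrl, was calculated with 1 added to each count. It had a median of 0.01 over the 57 members and 0.01 over all 10509 genes measured. It was above 0 in 30 members and below 0 in 27. A size above 0.5 was reached by 6 of the 57, against 31.0% of all genes. Member genes had a median of 1792 reads in siCtrl, with a range from 53 to 13453.

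CBX1, a heterochromatin protein 1, had the largest ratio, 1.06 (95% counting interval 0.98 to 1.14), with 3439 reads (209.7 RPM) in siSNRPB2 and 1859 (100.4 RPM) in siCtrl. The H3K27 demethylase KDM6A had 371 against 256 reads and a ratio of 0.71. CBX1 has 1 event, so its reads summed over all events (ratio 1.07) are the same reads and give no check. KDM6A, with 8 events, kept a ratio above 0.5 when reads were summed over all events, at 0.53. For the other 4 the summed ratio did not pass 0.5 in size. DNMT3A went from 0.71 to 0.16, ARID1B from 0.67 to 0.42, HDAC3 from -0.67 to -0.29 and BRD9 from -0.74 to -0.05. For KDM1A the ratio was -0.24 and for MBD1 -0.25, and with reads summed over all events it was -0.13 for each. In a bulk sample, a smaller share of cells that express a gene and less of its RNA per cell cannot be told apart.

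**Figure D4:**
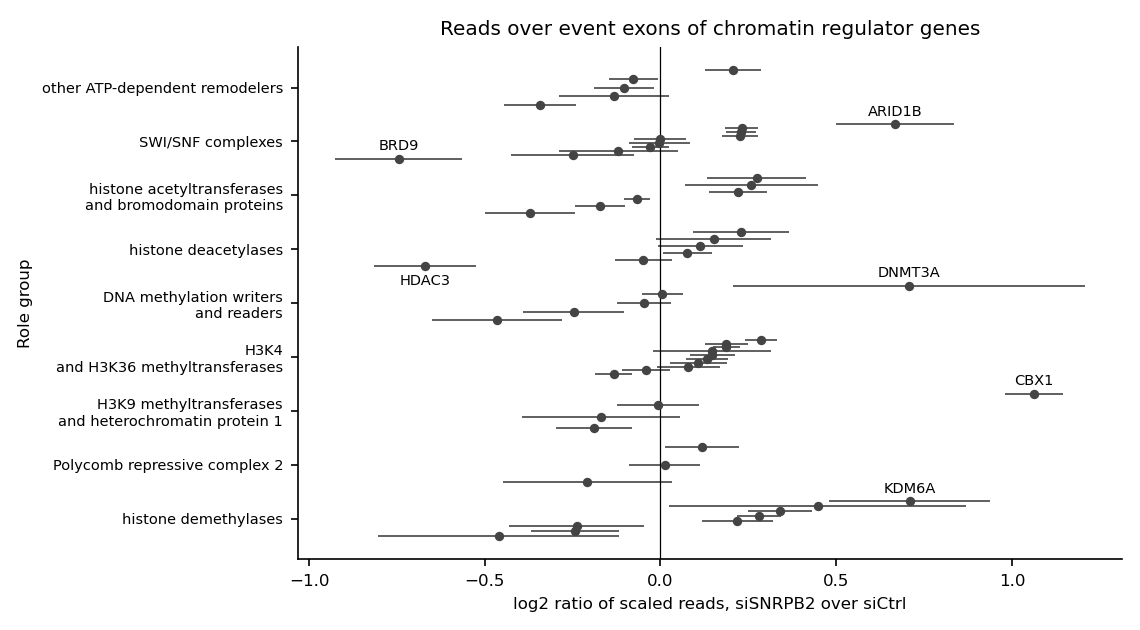
log2 ratio of scaled reads, siSNRPB2 over siCtrl (horizontal axis), of the 57 measured genes in 9 role groups; points are genes and bars 95% intervals for counting error. The 6 labelled genes lie beyond 0.5 in size, from BRD9 at -0.74 to CBX1 at 1.06.

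The files held 93580246 reads over 42670 events for siSNRPB2 and 100579230 over 42159 for siCtrl, and no event was assigned to SNRPB2, so its depletion could not be read from them. For the identity of the cells, 9 of 14 mesenchymal markers were measured, with summed levels of 3471 and 3851 RPM in siSNRPB2 and siCtrl. Most of that sum came from CD44 alone (2371 and 2712 RPM), and the log2 ratio was above 0 in 3 of the 9 and below 0 in 6. Of 12 epithelial markers 5 were measured (91.5 and 118, of which OVOL2 gave 55.6 and 78.3), and of 11 blood and endothelial markers 2 (3.84 and 4.10). The part of these levels in the results was not tested.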

How the data were processed

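RNA-seq libraries of MDA-LM2 cells (2 siCtrl, 2 siSNRPB2) were made; the submitters' processing notes name STAR 2.7 and hg38. The authors deposited MISO summaries with ψ as a fraction and read classes per event for each group, and a comparison with the ψ difference as a score and the Bayes factor as a ratio; each file holds 1 value per group. Not given in the sources used here are MISO's version, its event annotation and the way libraries were merged, and whether the replicates are separate cultures is not stated.

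Events were matched to GENCODE release 29 by exon boundary, and 1 event per exon was kept, that with the most inclusion-only and exclusion-only reads. Exons needed 20 such reads in each file. A call needed a Bayes factor of 10 and a ψ difference of 0.1. Fisher's exact test with Benjamini-Hochberg adjustment used SciPy 1.17.1, with pandas 2.3.3 and numpy 2.4.6 on Python 3.11.15; figures used matplotlib 3.10.9. Fisher's exact test was tried on simulated independent reads, which lack the excess variation between the files described above. Reads per gene used a pseudocount of 1 and a minimum mean of 20 reads. Shares have 95% Wilson intervals and a floor of 3 reads, for counting error only.

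Members and lists were chosen with earlier results of these data known. Named were every tested exon of KDM1A and every called exon. The 10 largest called differences per direction, 1 per gene, and the largest of each role group have reads, position, frame and intervals. Named too were, per role group, the uncalled exon with the most reads and up to 3 genes with a log2 ratio beyond 0.5, and the 3 largest calls among KDM1A partners and other regulators. Reads of other exons, among them those of SETD5, HDAC8, SMARCA4, CHD2 and the 57 nt exon of BRD8, were given after their values were seen.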

Additional observations from a re-analysis of the deposited data

Results flagged for a closer look

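Reads compatible with neither isoform were not used in any comparison above. Over the 339 events of the member genes they made up 47.7% of all reads in siSNRPB2 and 46.5% in siCtrl, and their share was higher in siSNRPB2 in 196 of the 339 events. Over all events of the series the shares were 60.6% and 58.4%. With 1 file per group, no spread between libraries stands beside this difference.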

How the results depend on the processing

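No paired analysis was possible because each file holds 1 pooled value per group, and for the same reason no library could be left out in turn. With a ψ difference of at least 0.2, 19 exons were called (11 lower, 8 higher), and with exons that have exclusion-only reads alone, 17 (10 and 7). Fisher's exact test on reads picked 21 (13 and 8). On reads divided by the factor of 9.83 it picked 0 (0 lower, 0 higher), with 2 exons at an unadjusted p under 0.05. Exons with few reads could not pass at that setting. A Bayes factor of 5 or 100 gave 35 and 23 calls, a minimum of 10 or 50 reads 34 and 23, and a ψ difference of 0.05 gave 42. Leaving out exons shared with another gene gave 30 and 1 exon per overlapping cluster 25, both chosen after seeing the data. The direction turned for the BRD8 exon of 93 nt by the share of inclusion-only reads (-0.02, or -0.0392 with those reads halved). It also turned for the KMT2A exon of 99 nt with the median over its events (0.01) and with its second event (0.21). The cause was not tested. By the share of inclusion-only reads, 12 of the 31 called exons still differed by at least 0.1; 18 kept their direction or had no difference but fell short of 0.1, of which 14 have no exclusion-only read, and the BRD8 exon turned. Of the called exons, those with the fewest isoform-specific reads were the 93 nt exon of MBD1 (20 in siCtrl), KMT2E (21 in siSNRPB2) and SMARCA1 (21 in siCtrl and 22 in siSNRPB2), so depth limits these.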
